A study of Mus musculus with 30 samples.

Results

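Matrix metalloproteinases (MMPs) are zinc proteases that cut collagens and other proteins outside the cell. The related ADAMTS proteases cut proteoglycans, procollagens and a few blood and matrix proteins. ADAMTSL proteins share the ADAMTS matrix-binding modules but lack the protease, and the tissue inhibitors of metalloproteinases (TIMPs) block the active site of these enzymes. Every row of the deposited table whose symbol is Mmp, Adamts or Adamtsl followed by its number, or Timp1 to Timp4, was taken, which gave 49 of 18847 genes: 21 MMPs, 19 ADAMTS genes, 5 ADAMTSL genes and 4 TIMPs. All 49 were found by their Ensembl identifiers in the GENCODE M21 annotation of GRCm38.

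The libraries came from thymic stroma of B6.SJL mice of mixed sex, 3 days old, that had received aflibercept or human Fc protein on postnatal day 1, 2 days before collection. Aflibercept, called Trap here, is a soluble decoy built from VEGF receptor domains, and the Fc protein was the control. Flow cytometry gave 5 populations negative for CD45, TER119, CD3, CD4 and CD8: endothelium (CD31+), CD146+ mesenchyme, CD140a+ mesenchyme, cortical thymic epithelial cells (cTEC, EpCAM+ and Ly51+) and medullary thymic epithelial cells (mTEC, EpCAM+ with little or no Ly51). Each population had 4 Trap libraries and 2 control libraries, 30 in all. The labels do not say how many animals were pooled for a library or whether libraries came from separate animals, so p-values measure the spread between these libraries, which may be technical.

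Levels are FPKM, fragments scaled to the length of the gene and to the library, so that levels of different genes can be set side by side. The reads behind each value are unknown. In thymus, as in other organs, matrix turnover is shared between cells: mesenchyme lays down most collagen, endothelium and epithelium rest on basement membranes, and T cell precursors move through both. MMPs are made as inactive precursors. TIMP2 with the membrane-bound MMP14 carries MMP2 to its activation. TIMP3 stays bound to the matrix, also inhibits several ADAMTS enzymes, and can block binding of VEGF to its receptor. ADAMTS1 cuts the proteoglycan versican and has been reported to bind VEGF.

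Of the family's MMP genes, 8 stand in 1 run on chromosome 9. Mmp1b, which is not among the 49 genes, overlaps Mmp12 there on the opposite strand. In the order Mmp13, Mmp12, Mmp3, Mmp10, Mmp8, Mmp27, Mmp20 and Mmp7, these genes span chr9:7272514-7699585 of GRCm38, each on the + strand. Promoters of the cluster, without Mmp8 and Mmp27, are shown here because 7 of the 8 genes had their highest mean level in an epithelial population. For Mmp3 this was a near tie, with means of 0.757 FPKM in cTEC and 0.742 in CD140a+ mesenchyme. The sequences are RefSeq windows of build GRCm38.p6, from 90 bases before to 10 bases after the annotated start, 5′ to 3′. Capitals mark TGAGTCA or its reverse complement TGACTCA, the letters of the classical site for the AP-1 factors, and TATAAA (reverse complement TTTATA), the letters of a TATA box. Among windows not printed, those of Mmp27, the first of Mmp12 and the second of Mmp7 held none of these letters. The Mmp8 window held TTTATA alone.

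Mmp13 (chr9:7272424-7272523, +): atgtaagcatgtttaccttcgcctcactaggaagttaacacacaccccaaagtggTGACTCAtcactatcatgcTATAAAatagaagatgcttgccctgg
Mmp12 (chr9:7347284-7347383, +): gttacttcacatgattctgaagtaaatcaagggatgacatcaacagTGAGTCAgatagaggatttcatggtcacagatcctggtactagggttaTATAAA
Mmp3 (chr9:7445732-7445831, +): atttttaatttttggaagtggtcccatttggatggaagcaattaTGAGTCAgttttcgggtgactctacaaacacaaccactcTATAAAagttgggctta
Mmp10 (chr9:7502252-7502351, +): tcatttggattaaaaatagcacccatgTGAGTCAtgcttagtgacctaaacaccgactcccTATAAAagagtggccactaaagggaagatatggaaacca
Mmp20 (chr9:7628141-7628240, +): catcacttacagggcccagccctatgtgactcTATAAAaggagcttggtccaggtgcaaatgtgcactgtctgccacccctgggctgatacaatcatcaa
Mmp7 (chr9:7692000-7692099, +): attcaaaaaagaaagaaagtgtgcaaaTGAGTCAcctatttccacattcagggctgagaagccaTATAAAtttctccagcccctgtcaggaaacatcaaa

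Over whole windows of 250 bases before to 50 after the start, TGAGTCA on either strand was found in 5 of the 8 clustered genes (62.5%), against 5.95% of all 27025 genes with a window. A gene was counted if any of its windows held the letters, and 5.2% of all 32851 windows held them. These 5 were also all that held it among the 34 family genes with a window. TATAAA on either strand was found in 7 of the 8 clustered genes (87.5%), against 15.7% of all genes (13.6% of all windows) and 29.4% of the family genes with a window. In Mmp10 and in Mmp7 the TGAGTCA letters began 63 bases before the start, in Mmp3 46 bases, in the second of the Mmp12 windows 44 bases and in Mmp13 35 bases before it. The TATAAA letters began 29 bases before the start in Mmp10, 26 in Mmp7 (and also 123), 16 in Mmp13 and 7 in Mmp3. They began 58 bases before it in Mmp20 and at base 5 after it in the second Mmp12 window. The TTTATA letters of Mmp8 began 3 bases before the start. Mmp20 held the TATA letters without TGAGTCA in its window. A match of letters is a description of the window and says nothing of which factor binds there.

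Each population carried its own markers. Summed over 7 genes each, endothelial markers reached 1250 to 1413 FPKM in endothelium and at most 36.4 elsewhere, fibroblast markers 3030 to 4390 in CD140a+ mesenchyme and at most 223 elsewhere, and mural markers 4753 to 6205 in CD146+ mesenchyme. In mTEC the mural sum reached 508 to 760, most of it Rgs5, and in cTEC the mTEC sum reached 561 to 1170, most of it Epcam and Ccl21a. Library sums of FPKM ran from 184608 to 241993, 10298 to 13661 genes reached 1 FPKM, and no libraries were identical. Endothelial Trap library 2 stood apart: its cTEC marker sum was 54.7 FPKM, where the remaining 5 libraries of endothelium had 3.02 to 10.1, and its mTEC marker sum was 216 FPKM, where those 5 had 25.9 to 95.1. In sorted bulk samples, fewer cells of a type and less RNA per cell cannot be told apart.

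The family was expressed by every population, each with a different set. A mean of at least 5 FPKM was reached by 25 genes in CD140a+ mesenchyme, 19 in CD146+ mesenchyme, 15 in cTEC, 11 in endothelium and 10 in mTEC, and 31 genes reached it somewhere. The highest mean lay in CD140a+ mesenchyme for 20 of the 49 genes, in endothelium for 8, in mTEC for 8, in CD146+ mesenchyme for 7 and in cTEC for 6. Adamtsl2 and Mmp27 stayed under 1 FPKM in every library and were not tested. The other 47 genes passed the filter of 1 FPKM in at least 2 libraries, which kept 16425 genes in all. The tests used limma on log2(FPKM + 1) with Benjamini-Hochberg adjustment over these genes, a scale that understates differences of low genes.

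**Figure D1:**
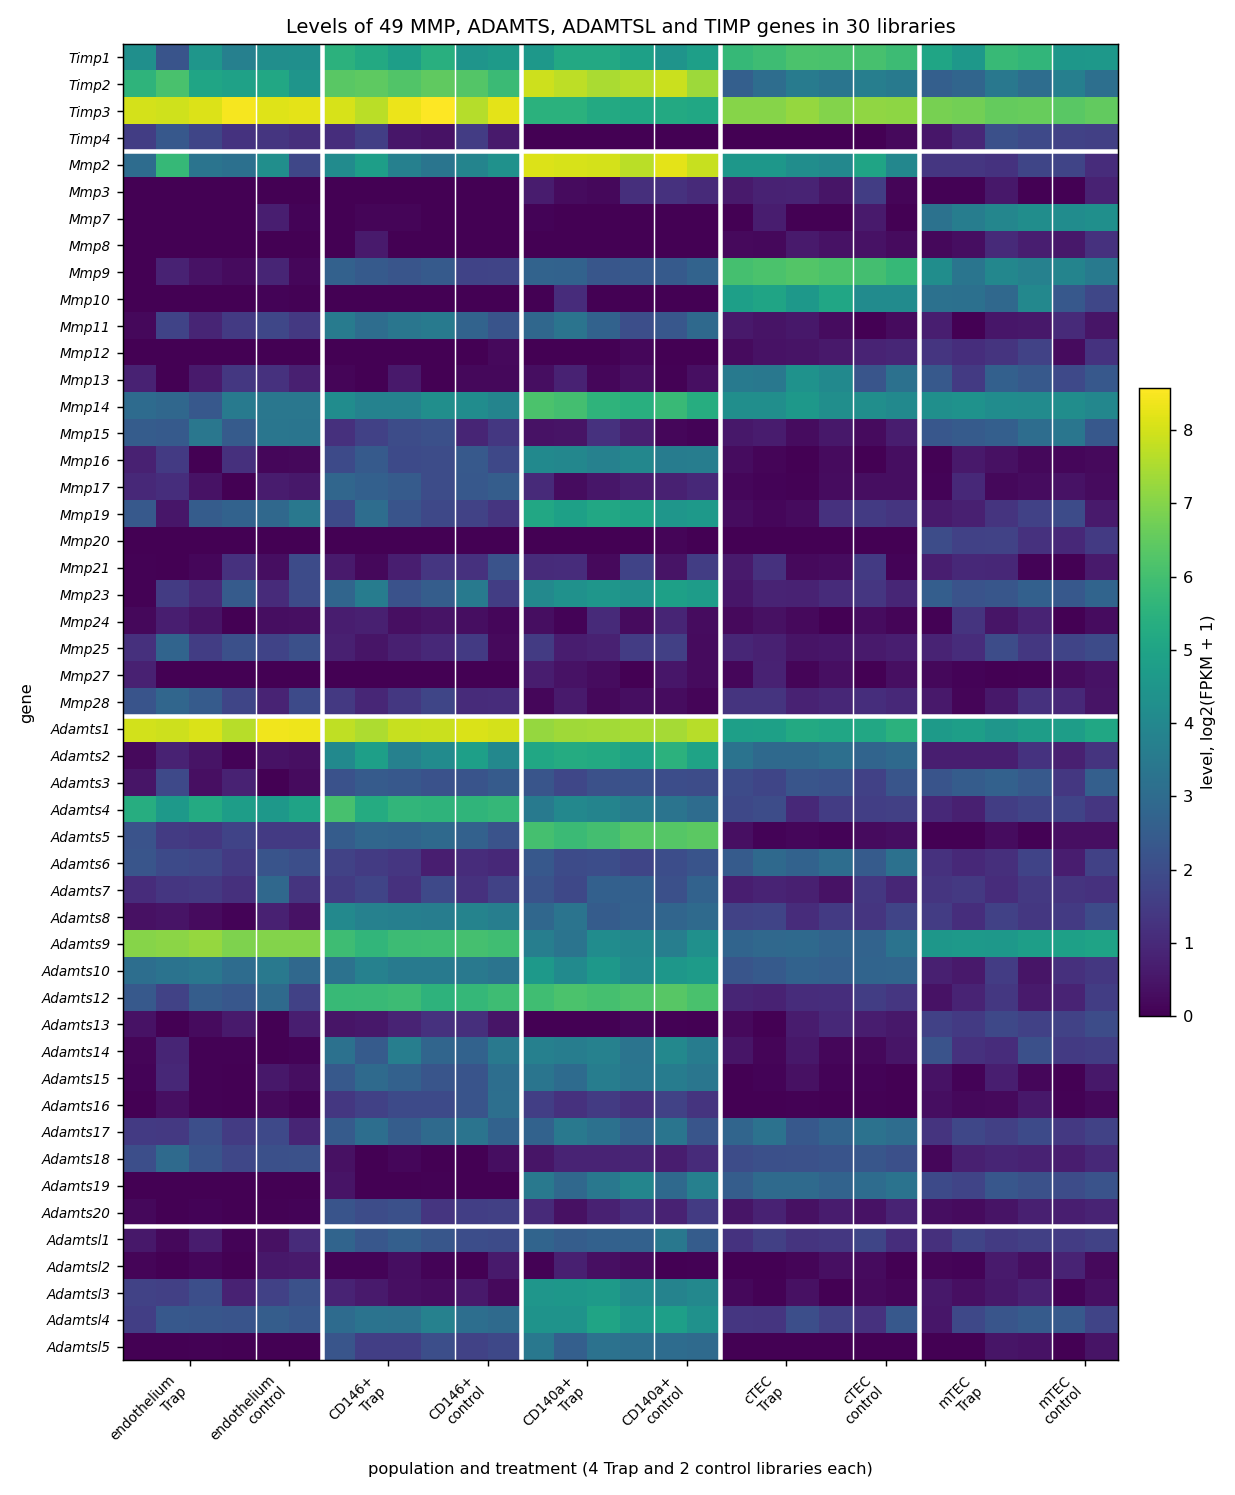
Levels of the 49 family genes as log2(FPKM + 1), 1 row per gene and 1 column per library, with the 4 Trap libraries left of the 2 control libraries in each of 5 populations. Colour changes mostly between populations, as for Mmp2 at 205 to 298 FPKM in CD140a+ mesenchyme and 1.15 to 2.47 in mTEC, and little between treatments.

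Against the mean of the other 4 populations, CD140a+ mesenchyme had 24 of 47 family genes higher (51.1%, against 17.1% of all genes tested) and 14 lower (29.8%, against 33.0%). CD146+ mesenchyme had 22 higher (46.8%, against 18.2% of all genes) and 11 lower (23.4%, against 25%). In endothelium 10 were higher (21.3%, against 17.7%) and 27 lower (57.4%, against 34.5%). In cTEC 10 were higher (21.3%, against 21.2%) and 25 lower (53.2%, against 24.5%). In mTEC 12 were higher (25.5%, against 38.4%) and 23 lower (48.9%, against 17.5%). The median log2 difference of the family was 0.57 in CD140a+ mesenchyme, where that of all genes was -0.19, and 0.31 in CD146+ mesenchyme, where that of all genes was -0.08. It was -0.47 in endothelium, -0.41 in cTEC and -0.42 in mTEC, where the medians of all genes were -0.19, -0.07 and 0.19. Quantile normalization moved the median of all genes by -0.33 in the mTEC contrast and turned its split into 8 higher and 31 lower.

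Between the mesenchymal populations, CD140a+ against CD146+ had 21 of 47 family genes higher (against 13.5% of all genes) and 12 lower (against 17.7%). Mmp2, Adamts5 and Adamtsl3 were among the higher, with log2 differences of 3.96 ± 0.40, 3.62 ± 0.15 and 3.72 ± 0.19 (SE). Timp3, Adamts4 and Adamts9 were among the lower, at -2.79 ± 0.13, -2.19 ± 0.20 and -2.03 ± 0.13. Between the epithelial populations, cTEC against mTEC had 13 higher (against 12.9% of all genes) and 11 lower (against 28.3%), and quantile normalization gave 19 and 8 while shifting the median over all genes by 0.28. Mmp2, Mmp9 and Adamts2 were higher in cTEC, by 2.96 ± 0.40, 2.25 ± 0.17 and 2.01 ± 0.19 on the log2 scale. Mmp7, Mmp15 and Adamts9 were lower in cTEC, with differences of -3.74 ± 0.17, -2.25 ± 0.23 and -1.88 ± 0.13.

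The inhibitors divided the populations. Timp3 was the most abundant TIMP in endothelium, CD146+ mesenchyme, cTEC and mTEC, where it made up 83.5%, 70.8%, 65.5% and 69.3% of the summed TIMP level. In CD140a+ mesenchyme Timp2 took 75.3% and Timp3 14%. Timp1 made its largest contribution in cTEC, 30.2% of the sum. The summed TIMP level was 389 ± 76.0 FPKM in CD146+ mesenchyme, 343 ± 26.8 in endothelium, 270.5 ± 32.2 in CD140a+ mesenchyme, 207 ± 15.3 in cTEC and 140 ± 16.4 in mTEC (SD, n = 6 libraries each). The ranges of the first 2 overlapped (294 to 512 and 324 to 396 FPKM), and those of cTEC and mTEC did not (187 to 229 and 120 to 160 FPKM).

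Timp3 reached 287 ± 37.2 FPKM in endothelium, 278 ± 70.8 in CD146+ mesenchyme, 135 ± 8.38 in cTEC, 96.7 ± 10.3 in mTEC and 37.9 ± 4.70 in CD140a+ mesenchyme. Endothelium and CD146+ mesenchyme did not differ beyond their spread, and each lower step was free of overlap between libraries. The endothelial level was 1.43 ± 0.10 log2 units above the mean of the other 4 populations (adjusted p = 4.78e-12). Exons of Timp3 overlap those of Syn3 on the opposite strand, and Timp1 lies in an intron of Syn1. Exons of 9 other family genes (Timp4, Mmp11, Mmp12, Mmp19, Mmp24, Mmp28, Adamts4, Adamts7 and Adamts9) also overlap another protein-coding gene. The counting is not stated to use strand, so reads of such pairs cannot be told apart. Syn3 had a median of 3.65 FPKM over the libraries and a highest value of 10.9, and Syn1 a highest value of 4 FPKM.

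Timp2 was 204 ± 31.9 FPKM in CD140a+ mesenchyme, 77.6 ± 11.7 in CD146+ mesenchyme, 38.5 ± 16.8 in endothelium, 9.06 ± 2.52 in cTEC and 8.04 ± 2.56 in mTEC. The CD140a+ level was 3.18 ± 0.16 log2 units above the mean of the others (adjusted p = 5.25e-15), and the epithelial levels did not differ beyond their spread. Timp1, a secreted inhibitor induced in many wounded tissues, was 62.4 ± 6.86 FPKM in cTEC and 33.7 ± 14.2 in mTEC, and 32.4 ± 9.71 in CD146+ mesenchyme, 28.4 ± 6.15 in CD140a+ mesenchyme and 15.4 ± 6.51 in endothelium. The cTEC excess over the mean of the others was 1.34 ± 0.22 (adjusted p = 1.13e-05). Timp4 stayed at or under 4.09 FPKM and was listed at 0 in all 6 CD140a+ libraries.

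**Figure D2:**
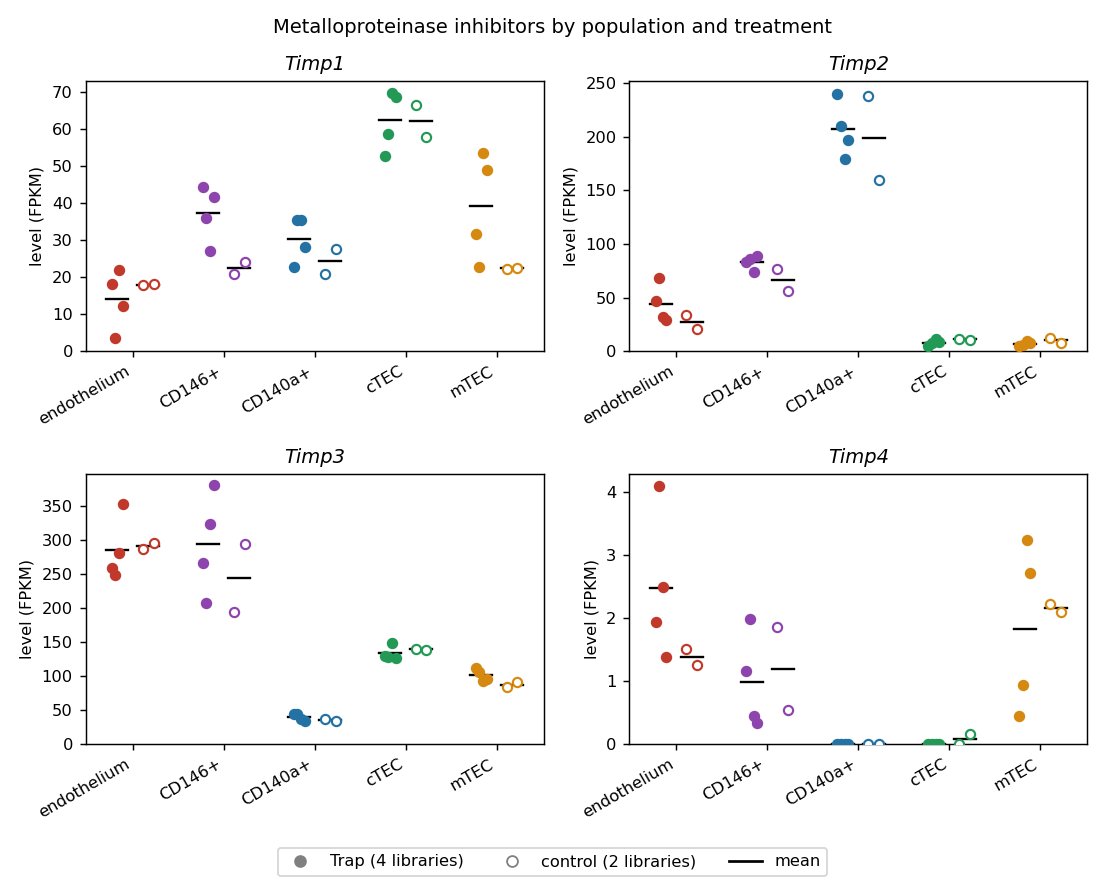
Levels of the 4 TIMP genes in FPKM by population, each panel on its own linear axis from 0, with filled points for the 4 Trap libraries, open points for the 2 control libraries and a bar for each mean. Timp2 peaks in CD140a+ mesenchyme at 160 to 240.2 FPKM, Timp3 in endothelium and CD146+ mesenchyme, and Timp1 in cTEC at 52.9 to 69.8 FPKM.

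Of the gelatinases, which cut denatured collagen and the collagen of basement membranes, Mmp2 marked CD140a+ mesenchyme and Mmp9 marked cTEC. Mmp2 was 280.2, 267.7, 259.8 and 204.8 FPKM in Trap libraries of CD140a+ mesenchyme, against 297.7 and 230.02 in its controls. Over all 6 libraries its mean was 257 ± 34.0 FPKM, 4.68 ± 0.32 log2 units above the other populations (adjusted p = 1.90e-12). The treatments overlapped. Mmp2 was next highest in cTEC, at 14.5 to 31.3 FPKM against 1.15 to 2.47 in mTEC. The summed level of the 7 fibroblast markers in cTEC was 10.7 to 14.6 FPKM with Trap and 11.2 and 14.96 in controls, against 16.4 to 28.4 in mTEC. Of these markers Dpt was 3.42 to 9.05 FPKM in cTEC, Dcn 2.38 to 5.94 and Dpp4 1.04 to 3.18, while Col1a1, Lum, Pdgfra and Pi16 were at most 1.12, 0.57, 0.23 and 0.05. None was at 0 in all 6 cTEC libraries, and their part in the Mmp2 values was not tested. In endothelium Mmp2 was 7.26, 53.2, 8.93 and 7.92 FPKM with Trap, against 17.9 and 2.58 in controls. The high value was that of Trap library 2, which stood apart above by its epithelial marker sums. It exceeded the Mmp2 level of every cTEC and mTEC library, and the part of other cells in it was not tested.

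Mmp9 was 64.7, 69.3, 77.4 and 69.6 FPKM in Trap libraries of cTEC, against 62.9 and 52.7 in controls. Each Trap value lay above both controls, and the difference did not pass the test. The cTEC mean of 66.1 ± 8.25 FPKM was 3.79 ± 0.13 log2 units above the other populations (adjusted p = 3.65e-18). Mmp9 was 13.03 ± 2.93 FPKM in mTEC, 4.88 ± 0.81 in CD140a+ mesenchyme, 3.79 ± 1.23 in CD146+ mesenchyme and 0.38 ± 0.36 in endothelium. Neutrophils are a known source of Mmp9. The 7 neutrophil markers summed to 0.92 to 1.91 FPKM with Trap in cTEC, against 1.68 and 3.07 in controls. In mTEC they summed to 106 to 194 FPKM with Trap, against 245 and 261 in controls. Elane was the 1 marker of them at 0 in each cTEC library, and their part in the Mmp9 values was not tested.

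The chromosome 9 cluster stayed low outside the epithelium. Its summed level was 37.8 ± 10.4 FPKM in cTEC and 29.9 ± 6.21 in mTEC, and 1.56 ± 0.63 in CD140a+ mesenchyme, 1.09 ± 0.76 in endothelium and 0.29 ± 0.25 in CD146+ mesenchyme. No clustered gene exceeded 1.65 FPKM in any endothelial or mesenchymal library. Highest means fell in mTEC for 4 of the 8 genes and in cTEC for 3, while of the 13 MMP genes elsewhere in the genome 2 were highest in an epithelial population. Against the mean of the other populations, 6 of the 7 tested clustered genes were higher in mTEC (38.4% of all genes were) and none lower (against 17.5%). In cTEC 4 were higher (against 21.2%) and 2 lower (against 24.5%). In each of endothelium, CD146+ and CD140a+ mesenchyme 6 were lower, where 34.5%, 25% and 33.0% of all genes were. The remaining clustered gene was higher in CD140a+ mesenchyme (14.3%, against 17.1% of all genes). None was higher in endothelium (against 17.7%) or CD146+ mesenchyme (against 18.2%). Mmp7, Mmp12 and Mmp20 reached 1 FPKM in 6, 5 and 6 libraries, all of mTEC, and so passed the filter through mTEC alone. For them a higher level in mTEC was nearly fixed in advance, so these counts describe the cluster and are not a test of it.

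Within the cluster the epithelial populations differed. Mmp10, stromelysin-2, was 24.5 ± 7.02 FPKM in cTEC and 7.40 ± 4.36 in mTEC, and its cTEC level stood 3.78 ± 0.16 log2 units above the other populations (adjusted p = 1.19e-16). Mmp13, the main interstitial collagenase of rodents, was 11.3 ± 5.59 FPKM in cTEC and 3.74 ± 1.26 in mTEC, an excess in cTEC of 2.41 ± 0.20 over the other populations (adjusted p = 1.41e-10). Mmp7, matrilysin, was 8.32, 11.4, 14.4 and 17.6 FPKM in Trap libraries of mTEC, against 16.9 and 18.3 in controls, and at most 0.64 FPKM in every library of the other populations. These groups overlapped, and the mTEC excess was 3.86 ± 0.14 (adjusted p = 1.30e-18). Mmp20, enamelysin, an enzyme best known from developing teeth, was 1.00 to 3.01 FPKM in mTEC and at most 0.08 FPKM elsewhere.

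Mmp3 and Mmp8, stromelysin-1 and neutrophil collagenase, and Mmp12, macrophage elastase, stayed at or under 2.25 FPKM. The neutrophil marker sum in mTEC was 106 to 194 FPKM with Trap and 245 to 261 in controls, carried mostly by S100a8 and S100a9. Of its other markers, Mpo was 7.79 to 16.3 FPKM there, Ltf 1.58 to 9.17 and Ngp 1.89 to 8.72. Camp was 0.35 to 2.98 FPKM and Elane 0 to 2.46 FPKM. Mmp8 was 0.13 to 1.36 FPKM in mTEC. The macrophage marker sum there was 22.7 to 43.1 FPKM with Trap and 38.1 to 41.1 in controls. The part of other cells in the low Mmp8 and Mmp12 values of mTEC was not tested. The cluster's letters shown above do not separate cTEC from mTEC: Mmp10 and Mmp7, with TGAGTCA at the same distance from the start, were highest in different populations.

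**Figure D3:**
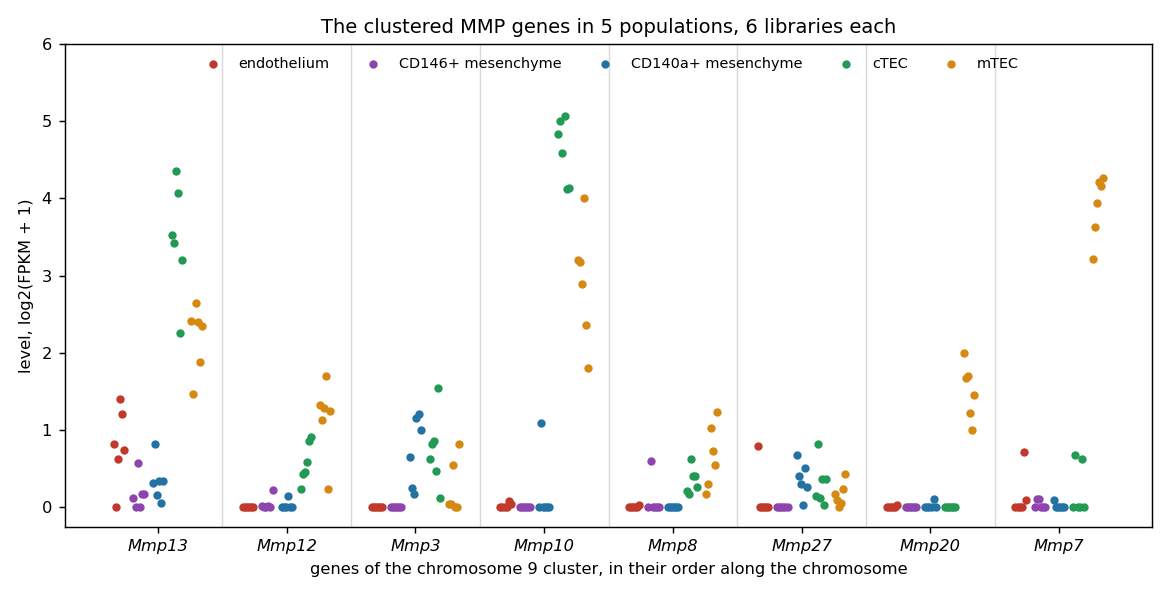
Levels of the 8 clustered MMP genes as log2(FPKM + 1), in their order along chromosome 9, with 1 point per library and colours for the 5 populations (6 libraries each, Trap and control together). Points of cTEC and mTEC lie highest for Mmp13, Mmp10 and Mmp7, whose cTEC or mTEC means are 11.3, 24.5 and 14.5 FPKM, while endothelial and mesenchymal points stay at or under 1.65 FPKM.

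The membrane-bound MMPs, which act at the cell surface, were shared out by type. Mmp14, which activates MMP2, was present in every library and highest in CD140a+ mesenchyme, where it was 69.9, 64.2, 47.2 and 41.9 FPKM with Trap, against 55.7 and 39.9 in controls. The treatments overlapped, and the CD140a+ mean of 53.1 ± 12.2 FPKM was 1.80 ± 0.13 log2 units above the others (adjusted p = 4.84e-12). The other populations lay between 7.80 FPKM, the endothelial mean, and 18.3 FPKM, the cTEC mean. Mmp16 followed it, with 13.3 ± 1.96 FPKM in CD140a+ mesenchyme and a difference of 3.02 ± 0.16 (adjusted p = 8.43e-15). Mmp15 was instead 6.88 ± 2.65 FPKM in endothelium and 5.74 ± 2.09 in mTEC, means that did not differ beyond their spread, and 0.42 to 2.02 FPKM on average in the other 3. The endothelial difference was 1.75 ± 0.18 (adjusted p = 5.96e-09). Mmp17, anchored by a lipid, had its highest mean in CD146+ mesenchyme, 4.62 ± 1.03 FPKM, and Mmp25, of the same kind, in endothelium, 2.97 ± 1.57 FPKM. Mmp24 stayed at or under 1.45 FPKM.

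Among the remaining MMPs, Mmp19 and Mmp23 belonged to CD140a+ mesenchyme, at 28.7 ± 5.30 and 21.5 ± 4.68 FPKM, with differences of 3.14 ± 0.26 (adjusted p = 1.03e-10) and 2.68 ± 0.27 (adjusted p = 3.56e-09). Mmp11, stromelysin-3, an enzyme that furin activates inside the cell, was 7.91 ± 2.87 FPKM in CD146+ and 5.72 ± 1.99 in CD140a+ mesenchyme, means within each other's spread, and at most 2.51 FPKM in any library of the others. Its CD146+ difference was 1.71 ± 0.20 (adjusted p = 5.25e-08). Mmp28, epilysin, peaked in endothelium at 3.37 ± 1.81 FPKM, and Mmp21 reached at most 3.55 FPKM. The summed MMP level was 390 ± 44.5 FPKM in CD140a+ mesenchyme, 148 ± 17.9 in cTEC, 78.2 ± 8.08 in mTEC, 67.1 ± 10.4 in CD146+ mesenchyme and 49.7 ± 18.7 in endothelium.

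The ADAMTS enzymes of the proteoglycan-cutting group, Adamts1, 4, 5, 8, 9, 15 and 20, covered the 3 EpCAM-negative populations in different ways. Adamts1 was the most abundant, at 271 ± 52.8 FPKM in endothelium, 232 ± 31.6 in CD146+ mesenchyme, 169 ± 18.1 in CD140a+ mesenchyme, 33.9 ± 5.71 in cTEC and 26.6 ± 4.02 in mTEC. It made up 58.6% of the summed ADAMTS level in endothelium and 34.3% in mTEC, and its endothelial difference was 1.81 ± 0.08 log2 units (adjusted p = 2.00e-16). Libraries of endothelium and CD146+ mesenchyme overlapped, as did those of cTEC and mTEC.

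Adamts5, which lies beside Adamts1 on chromosome 16, had another pattern. It was 65.7, 57.05, 63.9 and 78.8 FPKM in Trap libraries of CD140a+ mesenchyme, against 79.3 and 85.1 in controls, and at most 6.65 FPKM in any library of the other populations. Its CD140a+ difference of 5.06 ± 0.12 (adjusted p = 9.23e-22) was the largest of the 31 tests of a gene's highest population. Adamts9 was 131 ± 10.2 FPKM in endothelium, 58.3 ± 5.39 in CD146+ mesenchyme, 25.9 ± 3.38 in mTEC, 13.8 ± 3.74 in CD140a+ mesenchyme and 6.46 ± 1.10 in cTEC, and its libraries did not overlap between these populations. Its endothelial difference was 2.65 ± 0.11 (adjusted p = 2.86e-17). Adamts4 was highest in CD146+ mesenchyme, 49.8 ± 9.46 FPKM, ahead of endothelium at 29.9 ± 7.18. Adamts8 was also highest there, at 12.8 ± 1.45 FPKM, but ahead of CD140a+ mesenchyme at 6.32. Their CD146+ differences were 2.81 ± 0.16 (adjusted p = 8.92e-14) and 2.18 ± 0.14 (adjusted p = 7.86e-13). Adamts15 reached 9.48 ± 1.61 FPKM in CD140a+ mesenchyme, a difference of 2.55 ± 0.16 (adjusted p = 5.14e-13), and Adamts20 at most 3.66 FPKM.

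The procollagen N-proteinases, which trim fibrillar collagen before assembly, were mesenchymal for 2 of 3 genes. Adamts2 was 35.1 ± 5.73 FPKM in CD140a+ and 19.2 ± 6.63 in CD146+ mesenchyme, 6.98 ± 0.99 in cTEC and under 1.5 in each library of mTEC and endothelium. Adamts14 was 11.9 ± 2.01 FPKM in CD140a+ mesenchyme and 7.61 ± 2.77 in CD146+ mesenchyme. Their CD140a+ differences were 3.03 ± 0.15 (adjusted p = 4.23e-15) and 2.42 ± 0.19 (adjusted p = 2.56e-11). Adamts3, which also activates the lymphatic growth factor VEGF-C, averaged 3.10 to 4.11 FPKM in the other 4 populations and 0.73 ± 1.01 in endothelium.

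Adamts12, an enzyme that cuts cartilage oligomeric matrix protein, was 69.5 ± 6.49 FPKM in CD140a+ and 53.8 ± 4.92 in CD146+ mesenchyme and 1.01 to 4.05 on average elsewhere, with a CD140a+ difference of 3.59 ± 0.16 (adjusted p = 2.66e-16). Its relative Adamts7 peaked in CD140a+ mesenchyme at 4.21 ± 1.21 FPKM. Adamts10, which binds fibrillin, was 20.9 ± 3.76 FPKM there, and its relative Adamts6 was highest in cTEC at 6.10 ± 1.48. Their differences were 1.90 ± 0.13 (adjusted p = 4.19e-12) and 1.19 ± 0.17 (adjusted p = 1.65e-06). Adamts19 split the mesenchyme, with 9.85 ± 2.95 FPKM in CD140a+ cells, at most 0.36 in any CD146+ library and 6.65 ± 1.29 in cTEC, a CD140a+ difference of 2.10 ± 0.14 (adjusted p = 1.42e-12). Its relative Adamts17 was 7.02 ± 2.38 FPKM in CD140a+ mesenchyme, 6.65 ± 1.74 in cTEC and 6.29 ± 1.69 in CD146+ mesenchyme, means that did not differ beyond their spread. The Adamts17 difference of 0.67 ± 0.18 (adjusted p = 0.00322) lost its call without CD140a+ control 1 (0.41, adjusted p = 0.129). Adamts13, which cuts von Willebrand factor in plasma and is known from liver, was highest in mTEC at 2.31 ± 0.44 FPKM. Adamts16 and Adamts18 peaked at 3.49 ± 2.24 FPKM in CD146+ mesenchyme and 3.83 ± 1.53 FPKM in endothelium.

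All 4 tested ADAMTSL genes were highest in CD140a+ mesenchyme and passed the test against the other populations (17.1% of all genes were higher there) and against CD146+ mesenchyme (13.5% were higher). Adamtsl4, a fibrillin-binding protein, was 23.5 ± 4.86 FPKM there, Adamtsl3 was 18.8 ± 4.44, Adamtsl5 was 7.47 ± 1.57 and Adamtsl1 was 5.96 ± 1.97. Their CD140a+ differences were 2.33 ± 0.22, 3.50 ± 0.15, 2.53 ± 0.13 and 1.37 ± 0.15 log2 units, with adjusted p-values between 1.46e-16 and 2.02e-08. The summed ADAMTS level was 475 ± 37.6 FPKM in CD146+ mesenchyme, 459 ± 55.9 in endothelium and 450.0 ± 32.8 in CD140a+ mesenchyme, means within each other's spread, and 85.9 ± 9.96 in cTEC and 77.6 ± 10.03 in mTEC.

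Few family genes passed a test of Trap against control. In endothelium 0 of 47 family genes passed the limma test, while 1.74% of all genes did. The count was 0 in CD146+ mesenchyme (against 0.0183% of all genes), 0 in CD140a+ mesenchyme (against 0%), 0 in cTEC (against 0.00609%) and 0 in mTEC (against 0.347%). The test of whether the endothelial Trap change departed from the average change in the other 4 populations also gave 0 (against 0.280%). At an unadjusted p under 0.05 there were 8 of 47 family genes in endothelium (17%, against 14.9% of all genes), 3 in CD146+ mesenchyme (6.38%, against 5%), 0 in CD140a+ mesenchyme (against 3.71%), 4 in cTEC (8.51%, against 2.28%) and 3 in mTEC (6.38%, against 7.49%). For the endothelial departure there were 7 (14.9%, against 11%). These unadjusted counts depended on the libraries fitted and their weights. With each population fitted alone, endothelium had 2 (4.26%, against 7.21%), CD146+ mesenchyme 4 (8.51%, against 6.09%) and CD140a+ mesenchyme 5 (10.6%, against 5.91%). In the same fits cTEC had 7 (14.9%, against 6.3%) and mTEC 1 (2.13%, against 5.31%). With 1 weight per population the endothelial departure gave 1 (2.13%, against 5.92%). Family medians of the Trap change were -0.01, 0.04, 0.00, -0.06 and -0.09 log2 units in endothelium, CD146+ mesenchyme, CD140a+ mesenchyme, cTEC and mTEC, where the medians of all genes were -0.02, 0.00, 0.00, 0.00 and -0.04.

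The mean Trap change over the 5 populations passed for 1 of 47 family genes, against 0.426% of all genes in either direction and 0.292% lower. At an unadjusted p under 0.05 there were 2 family genes (4.26%, against 11.9% of all genes). That count also depended on the setting. It was 8 with a block for the replicate number (17%, against 11.8%) and 4 after quantile normalization (8.51%, against 11.2%). The gene that passed was Adamts1, which fell by 0.31 log2 units on average (SE 0.06, adjusted p = 0.0320). In endothelium it was 253.7, 239.8, 268.6 and 199.4 FPKM with Trap, against 333.9 and 330.9 in controls. In CD146+ mesenchyme it was 215.5, 181.3, 230.3 and 238.4 FPKM with Trap, against 269.8 and 257.9 in controls. Every Trap library lay below both controls in these 2 populations.

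In CD140a+ mesenchyme Adamts1 was 146.4, 160.9, 167.2 and 172.3 FPKM with Trap, against 168.4 and 201.3 in controls. In cTEC it was 27.95, 28.6, 36.2 and 32.6 FPKM with Trap, against 34.5 and 43.5 in controls, and in mTEC 24.5, 26.7, 21.7 and 26.4 FPKM, against 26.4 and 33.8. The groups overlapped in these 3. The differences were -0.47, -0.29, -0.19, -0.31 and -0.26 log2 units in endothelium, CD146+ mesenchyme, CD140a+ mesenchyme, cTEC and mTEC. None passed alone, the endothelial one having an SE of 0.14 and an adjusted p of 0.0887. Adamts1 and Adamts12 were the only family genes below 0 in all 5, and none was above 0 in all 5. The endothelial marker sum in endothelium was 1250 to 1327 FPKM with Trap, against 1374 and 1413 in controls, but its members differed. Trap values lay below both controls for Cdh5, Kdr, Emcn and Egfl7 and overlapped them for Tek and Cldn5. For Pecam1 they lay above both, 319.6 to 339.1 FPKM against 314.7 and 296.4. The part of these markers in the endothelial Adamts1 values was not tested. The call depended on the setting: the adjusted p was 0.172 with endothelium left out of the mean, 0.0849 after rescaling to TPM, and between 0.0515 and 0.105 without any 1 of 6 libraries (CD140a+ control 2, CD140a+ Trap 1, CD146+ control 1, cTEC control 2, endothelial control 1, mTEC control 2), while the change stayed below 0 in every alternative run. Without endothelial Trap library 2 the mean change was -0.31 (adjusted p = 0.0325).

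The core promoter of Adamts1 is shown because it is the gene that passed. In this RefSeq window (GRCm38.p6), TATAAA in capitals begins 32 bases before the start, and TGAGTCA was not found.

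Adamts1 (chr16:85803104-85803203, -): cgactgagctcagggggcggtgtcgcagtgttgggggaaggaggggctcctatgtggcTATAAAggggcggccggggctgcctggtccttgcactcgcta

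**Figure D4:**
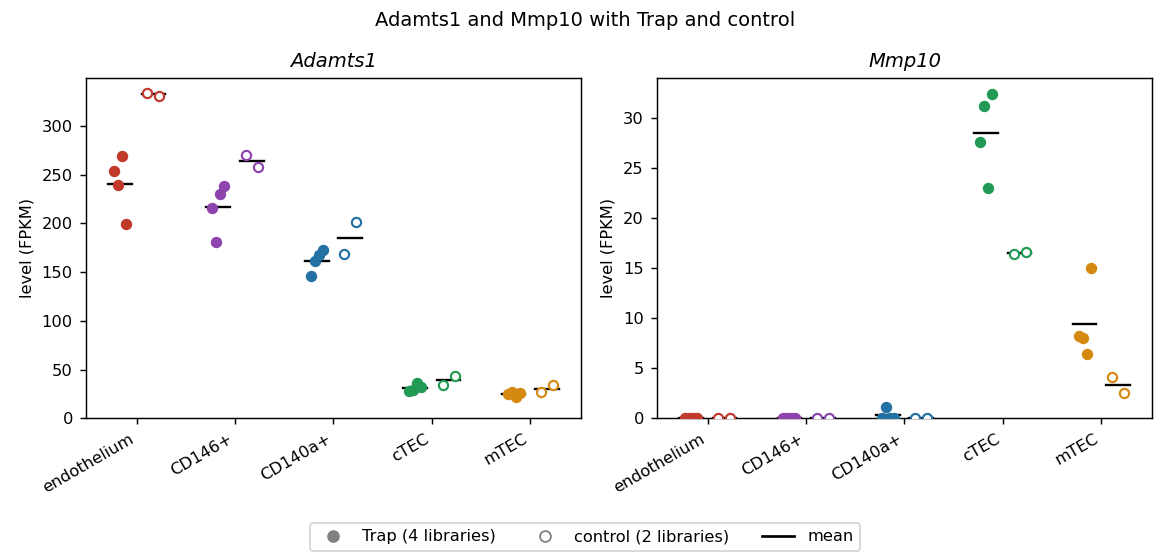
Levels of Adamts1 and Mmp10 in FPKM by population on linear axes from 0, with filled points for the 4 Trap libraries, open points for the 2 control libraries and a bar for each mean. For Adamts1 the Trap points lie below both control points in endothelium (199.4 to 268.6 against 330.9 and 333.9 FPKM) and CD146+ mesenchyme, and for Mmp10 above both in cTEC and mTEC.

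Mmp10 was the gene with the smallest unadjusted p in mTEC and did not pass. It was 8.23, 8.02, 6.44 and 15.1 FPKM with Trap, against 4.15 and 2.51 in mTEC controls, a difference of 1.23 ± 0.29 (SE, adjusted p = 0.0541). In cTEC it was 27.6, 31.2, 23.0 and 32.4 FPKM with Trap, against 16.4 and 16.6 in controls, a difference of 0.74 ± 0.29 (adjusted p = 1.00). The Trap libraries lay above both controls in both epithelial populations. The mTEC difference passed without the filter on low values (adjusted p = 0.0284), after quantile normalization (adjusted p = 0.0163) and without CD140a+ Trap 2 or mTEC Trap 3 (adjusted p = 0.0141 and 0.0188).

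Mmp13, of the same cluster but not next to Mmp10, was 10.6, 9.76, 19.5 and 15.8 FPKM with Trap in cTEC, against 3.79 and 8.24 in controls. This was a difference of 1.11 ± 0.36 (adjusted p = 1.00). The cluster's summed level in cTEC was 39.1 to 49.7 FPKM with Trap, against 23.9 and 26.4 FPKM in controls, and in mTEC 24.9 to 41.3 against 25.6 and 30.5. Groups were apart in cTEC and overlapped in mTEC. Other marker sums moved in the same cTEC libraries: thymocyte markers summed to 89.5 to 144 FPKM with Trap, against 50.2 and 84.8 in controls, and their part in these values was not tested. In mTEC Mmp12 was 1.5, 1.2, 1.45 and 2.25 FPKM with Trap, against 0.18 and 1.38 in controls (0.62 ± 0.20, adjusted p = 0.282), and it passed without mTEC control 2 (1.12, adjusted p = 0.00214).

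Elsewhere the smallest p-values belonged to genes that did not pass. In endothelium Mmp28 was 3.69, 6.04, 4.47 and 2.43 FPKM with Trap, against 0.79 and 2.82 in controls (0.93 ± 0.32, adjusted p = 0.141). The groups overlapped, and the gene passed without control 2 (1.48, adjusted p = 0.0327). In CD146+ mesenchyme Adamts16, known from kidney and gonad development, was 1.61, 2.13, 2.83 and 2.83 FPKM with Trap, against 3.72 and 7.81 in controls (-0.96 ± 0.22, adjusted p = 0.252), and it passed without control 1 (-1.41, adjusted p = 0.0121).

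Mmp9 in CD146+ mesenchyme was 5.36, 4.43, 3.81 and 4.44 FPKM with Trap, against 2.28 and 2.40 in controls (0.72 ± 0.24, adjusted p = 0.745). In CD140a+ mesenchyme Adamtsl3 was 21.6, 22, 24.4 and 16.7 FPKM with Trap, against 13.3 and 14.9 in controls (0.54 ± 0.27, adjusted p = 1.00). Adamts4 there was 10.4, 15.01, 13.7 and 10.9 FPKM with Trap, against 8.77 and 7.27 in controls (0.57 ± 0.29, adjusted p = 1.00). These 3 genes had each Trap library above both controls. In the test of the endothelial change against the other populations, the smallest p-values were those of Mmp15 (-0.89 ± 0.36, adjusted p = 0.326) and Mmp28 (0.84 ± 0.36, adjusted p = 0.356), and without endothelial Trap library 2 the values were -0.80 and 0.68 (adjusted p = 0.418 and 0.495).

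The 4 Trap values were all above, or all below, both controls for 5 family genes in endothelium (14.8% of all genes tested did so), 9 in CD146+ mesenchyme (12.6%), 7 in CD140a+ mesenchyme (11.9%), 12 in cTEC (13.5%) and 6 in mTEC (13.5%). Of the 19 ADAMTS genes, 16 had a mean Trap change below 0, as did 57.7% of all genes, with a median of -0.05 log2 units beside -0.03 for all genes. After quantile normalization these were 11 of 19 and 48.1%, with medians of -0.02 and 0.01. The summed ADAMTS level was 368.8 to 482.9 FPKM with Trap in endothelium, against 508.6 and 517.7 in controls, and 414.6 to 472.4 in CD146+ mesenchyme, against 509.1 and 520.9. It was 409.4 to 451.2 FPKM with Trap in CD140a+ mesenchyme, against 475.6 and 496.6 in controls, 74.9 to 84.1 in cTEC, against 86.5 and 104.5, and 68.9 to 81.8 in mTEC, against 75.4 and 96.0. Groups were apart in all but mTEC, and with Adamts1 taken out of the sum they were apart in CD140a+ mesenchyme alone (259.3 to 280.0 with Trap, against 295.3 and 307.1 FPKM). Some other family sums were apart and higher with Trap. The TIMP sum in mTEC was 136.26 to 159.65 FPKM with Trap, against at most 123.66 in controls. The MMP sum in cTEC, which includes the cluster, was 148.62 to 164.83 FPKM, against at most 143.3. The ADAMTSL sum in CD146+ mesenchyme was 15.28 to 20.05 FPKM, against at most 13.27. Each of these sums overlapped in its other populations. None of the sums was tested.

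**Figure D5:**
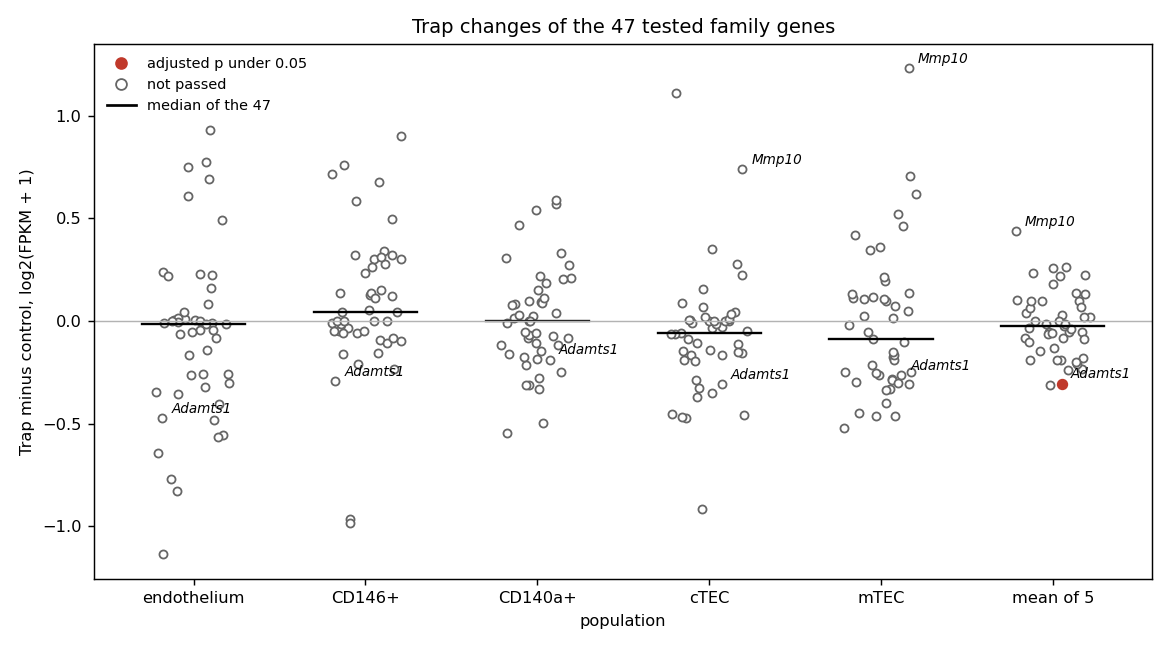
Trap minus control on the log2(FPKM + 1) scale for the 47 tested family genes in each population and as the mean of the 5, 1 point per gene, with a bar at the median and a filled point where the adjusted p was under 0.05. Most points gather about 0, and the filled point is Adamts1 in the mean of the 5 populations, at -0.31.

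Regulators of extracellular proteolysis that are not family members were read from a list of 31 genes, 30 of them tested. Against the other populations, 22 were higher in CD140a+ mesenchyme (17.1% of all genes were) and 5 lower (against 33.0%), and CD140a+ against CD146+ mesenchyme gave 20 higher (against 13.5%) and none lower (against 17.7%). The highest levels were those of Ctsl, a lysosomal cysteine protease used by cTEC for antigen presentation, at 1581 ± 153 FPKM in cTEC, the sheddase Adam12 at 134 ± 8.06 FPKM in CD140a+ mesenchyme, and Serpinf1, which encodes the antiangiogenic protein PEDF, at 113 ± 21.1 FPKM there. With Trap, 1 of 30 passed in endothelium, Adam19 (against 1.74% of all genes), and 0 passed in each of the other populations and in the mean of the 5.

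Adam19, a membrane-bound sheddase of the ADAM family, was 7.89, 4.68, 10.1 and 8.11 FPKM with Trap in endothelium, against 17.2 and 17.4 in controls. It fell by 1.11 log2 units (SE 0.21, adjusted p = 0.00517), and each Trap library lay below both controls. Its mean levels with Trap and in controls were 40.1 and 41.7 FPKM in CD146+ mesenchyme, 56.7 and 54.2 in CD140a+ mesenchyme, 12.7 and 10.6 in cTEC and 39.0 and 25.3 in mTEC. The endothelial change differed from the mean of the other 4 populations by -1.32 ± 0.23 (adjusted p = 0.00885). Both calls were lost with 1 weight per population (adjusted p = 0.129 and 0.0991) or per library (adjusted p = 0.116 and 0.114), and the endothelial call with endothelial libraries alone (adjusted p = 0.497) and without endothelial control 1 (adjusted p = 0.0519). Without Trap library 2 the endothelial change was -0.92 (adjusted p = 0.00933).

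Of 21 proteins that the family cuts or binds, 1 passed with Trap in endothelium (against 1.74% of all genes) and 0 in the other populations and in the mean. Fbn1, fibrillin-1, was 89.2, 107.3, 85.0 and 95.5 FPKM with Trap in endothelium, against 66.7 and 49.3 in controls, a rise of 0.70 ± 0.17 log2 units (adjusted p = 0.0287). The fibroblast marker sum in these libraries was 7.61 to 11.2 FPKM with Trap, against 3.75 and 1.08 in controls, and Fbn1 averaged 920.3 FPKM in CD140a+ mesenchyme. The part of such RNA in the Fbn1 values was not tested, and the call was lost without endothelial control 2 (0.49, adjusted p = 0.244), Trap 2 (adjusted p = 0.0630) or Trap 4 (adjusted p = 0.0506). It was also lost after quantile normalization (adjusted p = 0.0693), with 1 weight per population (0.303) or per library (0.242) and with endothelial libraries alone (0.464). Levels were highest for Col3a1 and Col1a1 in CD140a+ mesenchyme, 1870 ± 224 and 1251 ± 200.5 FPKM, and for Tnc, tenascin-C, in cTEC, 1215 ± 93.5 FPKM.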

How the data were processed

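RNA sequencing was measured in 30 sorted libraries of 5 populations. The authors deposited 1 table of FPKM values, rounded to 0.01, for 18847 genes. The submitters' processing notes name bcl2fastq 2.17, STAR and DESeq2 with builds GRCm38 and mm10; the sources used here do not give what each did, the annotation or the use of strand. Reads could not be recovered from the rounded values, so depth is unknown and precision was read from the spread between libraries (within-group Pearson correlation 0.902 to 0.982 across genes). All 30 columns matched a sample label.

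A gene was tested (16425 were) if 2 or more libraries held it at 1 FPKM or above. The model was that of limma 3.58.1 (R 4.3.3) on log2(FPKM + 1), with a mean for each of the 10 groups, a variance trend, two-sided tests, 14 contrasts and a Benjamini-Hochberg adjusted p under 0.05 over all genes tested, as checked on simulated data. Figures and counts used Python 3.11.15, pandas 2.3.3 and matplotlib 3.10.9. Genes were named where a population mean reached 5 FPKM, where a Trap contrast passed, or otherwise for the 2 smallest p-values; of the lists of 31 regulators and 21 substrates, those that passed and the 3 highest levels were named. Family, lists and tests were chosen with earlier results of these data known. Alternatives covered the pseudocount, filter, scaling, weights, libraries fitted, a replicate block and each library left out. Adamts1 with each population left out of the mean was added after seeing the data. Promoter windows came from RefSeq; protein sequences were not used here.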

Additional observations from a re-analysis of the deposited data

Results flagged for a closer look

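Within groups of 4 Trap libraries, 5 of 80 sets of values held 1 library far from the other 3, and chance gives about 1 in 20. Mmp2 was 53.2 FPKM in endothelial Trap library 2, the library with the high epithelial marker sums, against 7.26 to 8.93 in the other 3. This value also exceeded the Mmp2 level of every cTEC and mTEC library, and the part of other cells in it was not tested. Mmp15 was 9.64 FPKM in endothelial Trap library 3, against 4.38 to 4.6 in the other 3, which leaves it beside the controls at 9.23 and 9.0. In cTEC Trap library 3, Timp3 was 148 FPKM, against 127 to 129 in the others, and Mmp14 was 22.7 FPKM, against 17.7 to 17.9. Adamts9 was 48.8 FPKM in CD146+ Trap library 2, against 58.0 to 58.8 in the others.

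The Mmp19 values with Trap lay all above both controls in CD140a+ and CD146+ mesenchyme and all below them in endothelium and cTEC, and none of these differences passed the limma test. In CD140a+ mesenchyme it was 34.4, 28.5, 34.1 and 30.1 FPKM with Trap, against 21.5 and 23.7 in controls, a difference of 0.47 log2 units (adjusted p = 1.00). In CD146+ mesenchyme it was 2.81, 7.35, 3.72 and 2.65 FPKM with Trap, against 2.23 and 1.52 in controls (0.76, adjusted p = 1.00). In endothelium it was 4.3, 0.44, 4.7 and 5.52 FPKM with Trap, against 6.51 and 9.86 in controls, a difference of -1.14 (adjusted p = 0.237). The value of 0.44 is that of Trap library 2, which stood apart, and without it the difference was -0.63 (adjusted p = 0.485). In cTEC it was 0.23, 0.12, 0.19 and 1.32 FPKM with Trap, against 1.75 and 1.53 in controls (-0.92, adjusted p = 1.00). Differences between pairs of these populations were not tested. The endothelial change against the mean of the other 4 populations was -1.16 ± 0.52 (SE, limma adjusted p = 0.403), and -0.66 without Trap library 2 (adjusted p = 0.611).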

How the results depend on the processing

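No Trap or population difference printed with its p for a single gene reversed in the alternatives run, but medians near 0 did change sign. After quantile normalization the family median of the Trap change was 0.01 in mTEC (-0.09 as reported), 0.00 in endothelium (-0.01), 0.02 in the mean (-0.02) and 0.00 in the endothelial difference (-0.02), and upper quartile scaling gave 0.00 in the mean. Quantile normalization also turned the family median of cTEC against mTEC to 0.23 (-0.07 as reported), and that of all genes to 0.11 (-0.17) there and to -0.14 (0.19) in mTEC against the other populations. Medians of all genes for Trap, -0.04 to 0.00 as reported, changed sign with it in endothelium, cTEC, mTEC, the mean and the endothelial difference, and with upper quartile scaling in cTEC. Rescaling to TPM turned the median of all genes in CD146+ mesenchyme to 0.04 (-0.08 as reported). With log2(FPKM + 0.1), 1 family gene passed in endothelium, and without the filter, or after quantile normalization, 1 passed in mTEC. In the mean Trap change 0 passed after rescaling to TPM, upper quartile scaling, quantile normalization or 1 weight per population, and Adamts1 then had changes of -0.28, -0.27, -0.30 and -0.31 (adjusted p = 0.0849, 0.0718, 0.0656 and 0.0501). With 1 population left out of that mean, its change was -0.26 to -0.33 (adjusted p = 0.0572 to 0.172). The cause was not tested.

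With each library left out, the family genes that passed with Trap numbered 0 to 2 in endothelium, 0 to 1 in CD146+ mesenchyme, 0 to 0 in CD140a+ mesenchyme, 0 to 0 in cTEC, 0 to 1 in mTEC, 0 to 1 in the mean and 0 to 1 in the endothelial difference. Against the other populations they numbered 34 to 39 in endothelium, 30 to 34 in CD146+ mesenchyme, 35 to 38 in CD140a+ mesenchyme, 33 to 36 in cTEC and 32 to 36 in mTEC, 22 to 24 between cTEC and mTEC and 29 to 33 between the mesenchymal populations. A control left alone was assumed to vary like the other groups.

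The labels do not say that replicate numbers pair the libraries, and not every pair correlated over 0.1, so they were not taken as paired. Deviations of same-numbered libraries correlated at -0.02 to 0.10 between populations with Trap, at -0.05 to 0.06 in controls and at -0.27 to 0.08 between Trap and control. With their own number 26 of 40 Trap pairs correlated best, where 1 in 4 would by chance, a hint from the data, not the design. In controls 14 of 20 did, where 1 in 2 would by chance. The 2 controls of a group deviate by equal and opposite amounts, so the 20 control pairs hold each result 2 times. With a block for the replicate number, 1 family gene passed in the mean Trap change and 0 in each other Trap contrast. That block sets control 1 with Trap 1 and control 2 with Trap 2, a pairing the labels do not give. Depth is unknown, 2 controls per population limit each Trap contrast, and values near 0 are the least certain.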
